A study of Mus musculus with 9 samples.

Results

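The proteasome is the large protease that degrades ubiquitin-tagged proteins, and its subunit genes were compared here between kidneys of young and old wild-type mice. Genes were taken by symbol, Psm followed by a letter from a to g and a number, which matched 47 of the 13081 genes in the table. One of them, Psme3ip1 (PIP30, a protein that binds the nuclear activator PA28 gamma), is no subunit, so it was counted apart from the other 46. The 46 genes comprised 7 alpha and 7 constitutive beta subunits of the core particle, 3 immunoproteasome beta subunits, 6 ATPases (Psmc) and 14 non-ATPase genes (Psmd) of the regulatory particle, 4 activators (Psme), 1 inhibitor (Psmf1) and 4 assembly chaperones (Psmg). A further 8 symbols of the family in the reference annotation (Psma8, Psmb11, Psmc3ip, Psme2b and 4 pseudogenes) had no row in the table. Both groups were kidneys of mice of wild-type genotype differing in age, 4 libraries at 3 months (young) and 5 at 16 months (old). The study names C57BL/6 as its mouse strain. RNA was primed from the poly(A) tail, and 1 stranded read was sequenced near the end of each transcript.

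The core particle is a barrel of 4 stacked rings, an alpha ring at each end that gates the channel and inner beta rings that hold the proteolytic sites. The regulatory particle docks on the alpha ring: its base unfolds and threads the substrate with 6 ATPases, and its lid removes ubiquitin before entry. In cells that respond to interferon gamma, the catalytic subunits beta 1, beta 2 and beta 5 are replaced by Psmb9, Psmb10 and Psmb8, which changes the peptides offered to MHC class I, and the PA28 activator (Psme1 and Psme2) can cap the core in place of the regulatory particle. Dedicated chaperones, among them Pomp and the Psmg proteins, assemble the core. In the kidney, tubule cells carry a high load of protein uptake and turnover.

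Expression is given as the normalised count, the number of reads of a gene divided by the size factor of its library. The tables held 4486406 to 6355095 reads per library. The libraries separated by age on the first principal component, which held 71.3% of the variance. Old library 2 stood apart, at 34.0 on this component against 47.2 to 56.5 for the other old and -63.9 to -59.0 for the young libraries, with a Pearson r across genes of 0.886 to 0.895 with young libraries against 0.845 to 0.864 for the other old ones. It was also the old library nearest to the young mean for 14 of the 37 called proteasome genes, and without it 37 were again called, 9 higher and 28 lower. Other measures moved with age. Mitochondrial ribosomal RNA took 2.98 to 4.46% of the reads in young and 21.8 to 25.4% in old libraries, and the remaining mitochondrial genes 23.8 to 25.3% in young and 12.7 to 15.0% in old. Summed marker levels were higher in every old library for thick ascending limb (7230 to 7884 in young, 8332 to 11669 in old), distal tubule (3205 to 4052, 4684 to 5802) and endothelium (1014 to 1167, 1425 to 1675), although of the 3 distal tubule markers only Slc12a3 rose and Calb1 and Pvalb fell. They were lower for podocytes (507 to 550, 386.2 to 443.4) and fibroblasts (1501 to 1880, 778.0 to 1345). All 7 proximal tubule markers were present, 2 called higher and 4 lower, and their sum was 173503 to 206040 in young and 115022 to 160222 in old libraries, carried by Kap. Without Kap, left out after its values were seen, the sum of the other 6 was 31957 to 32603 in young and 29399 to 37171 in old libraries, overlapping ranges. The part of these measures in the results below was not tested. The library titles carry a different prefix at each age, so that a difference in handling that follows the prefix and age cannot be told apart. In whole tissue, fewer cells of a type and less RNA per cell cannot be told apart either.

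Of the 46 proteasome genes, all 46 were tested and 37 (80.4%) changed with age, 28 lower and 9 higher in old kidneys. Over all 12667 genes tested, 59.7% were called, 30.5% lower and 29.2% higher, a call being an adjusted p under 0.05 in limma with Benjamini-Hochberg adjustment over all of these genes. The median log2 fold change (old minus young) was -0.46 over the proteasome genes and -0.00 over all genes. Counts of the young and old libraries did not overlap for 33 of the 46 genes, against 49.0% of all genes. The change was uneven along the complex: 14 of 17 core genes fell and 1 rose, while 6 of the 17 ATPase, base and lid genes fell and 7 rose. Reads of all 46 genes summed to 19299 ± 637 normalised counts (SD, n = 4) in young and 16900 ± 368 (SD, n = 5) in old libraries.

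**Figure D1:**
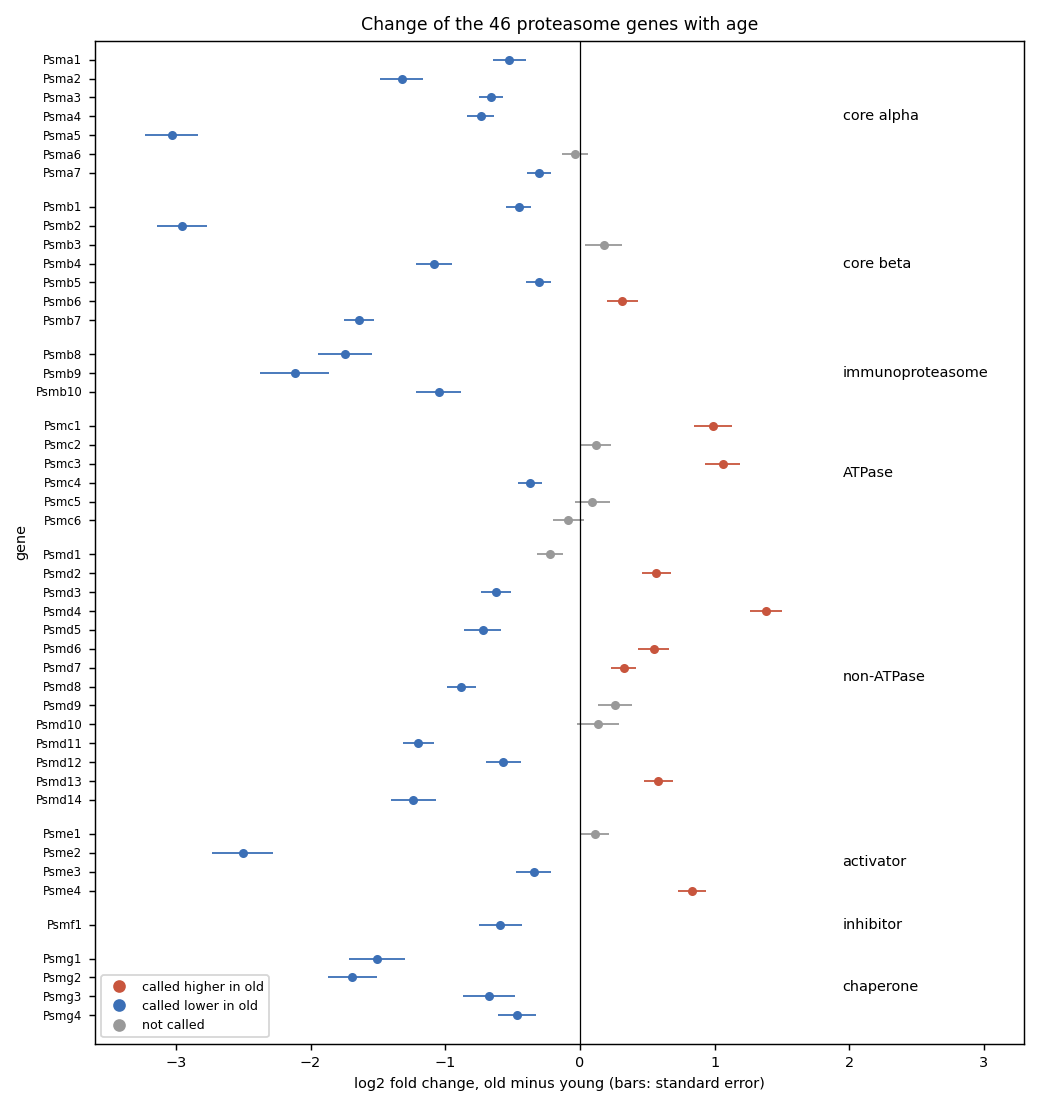
Log2 fold change of each of the 46 proteasome genes, old minus young, with its standard error, ordered by group; red marks genes called higher, blue lower and grey not called. The alpha, immunoproteasome and chaperone groups lie at or left of 0, while the ATPase and non-ATPase groups spread to both sides.

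**Figure D2:**
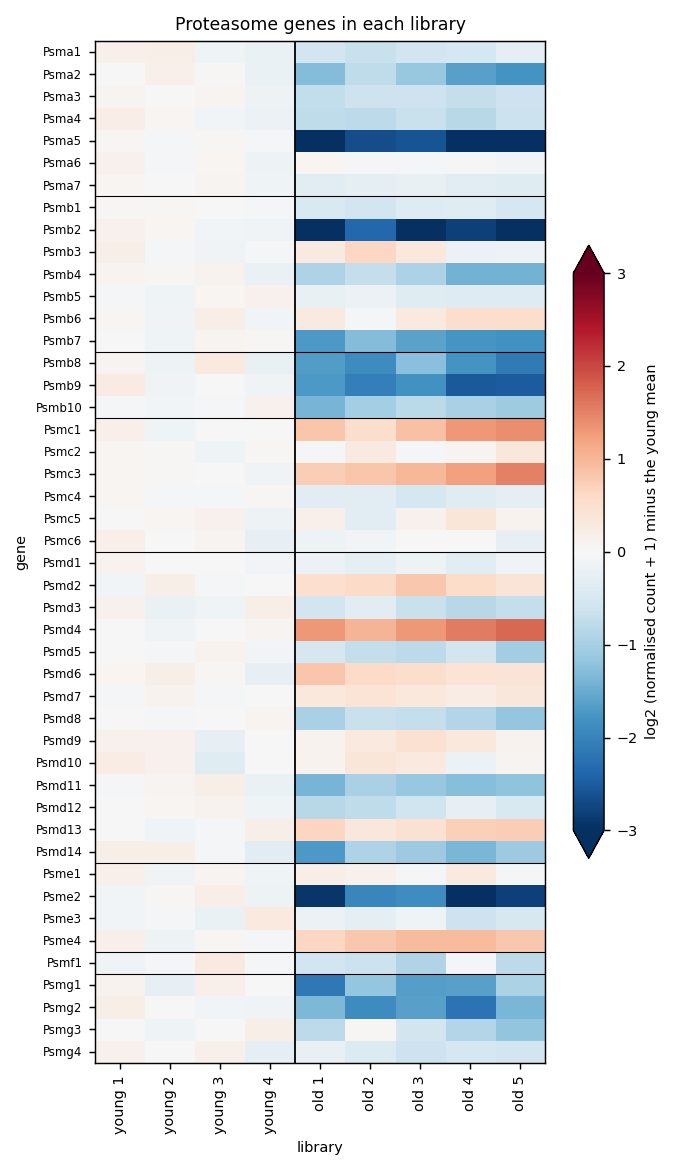
Log2 (normalised count + 1) of every proteasome gene in each of the 9 libraries relative to its young mean, with colours held within 3 log2 units and black lines between groups and ages. All 5 old libraries share the deep falls of Psma5, Psmb2 and Psme2 and the rises of Psmd4, Psmc1 and Psmc3.

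Among the 7 alpha subunits, which form the gated outer ring, 6 fell and 0 rose, and the median change was -0.66 on the log2 scale. The largest fall was that of Psma5 (alpha 5). Its normalised counts were 213.7, 200.2, 212.8 and 198.3 in the young libraries and 17.7, 31.7, 33.5, 25.2 and 18.03 in the old. Every old library lay below every young one by a wide margin. The log2 fold change was -3.03 (SE 0.20, adjusted p = 3.5e-10 in limma), an 8.16-fold fall. Psma2 (alpha 2) had 805.9, 887.1, 827.5 and 702.5 counts in young and 325.3, 473.7, 367.1, 257.5 and 231.3 in old libraries. The old values spread by more than the young ones and did not reach them, and the log2 fold change was -1.32 (SE 0.16, adjusted p = 9.3e-07 in limma). Psma4 (-0.74), Psma3 (-0.66), Psma1 (-0.53) and Psma7 (-0.30) fell less on the log2 scale, although the calls of Psma1 and Psma7 were lost, and Psma7 turned to 0.087, when a trend with transcript length was removed. That of Psma7 was also lost with mitochondrial genes left out (-0.16). Psma6 (alpha 1) had a log2 fold change of -0.04 (95% interval -0.24 to 0.16) and was not called. The 7 genes encode 1 ring in equal numbers of copies, and their transcripts changed by amounts from none detectable to a fall of over 3 log2 units.

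The 7 constitutive beta subunits, which line the chamber, had 5 falls and 1 rise, with a median of -0.46. Of the 4 that carry no active site, Psmb2 (beta 4) fell to the greatest extent. Its counts were 291.5, 275.0, 250.0 and 249.0 in young and 29.5, 51.4, 31.4, 37.3 and 23.3 in old libraries. The groups stood far apart, and the log2 fold change was -2.95 (SE 0.19, adjusted p = 2.5e-10 in limma). Psmb4 (beta 7) fell by 1.08 and Psmb1 (beta 6) by 0.46 on the log2 scale, and Psmb3 (beta 3) was not called at 0.18 (95% interval -0.11 to 0.47).

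Of the 3 constitutive catalytic subunits, 2 fell and 1 rose. Psmb7 (beta 2, the trypsin-like site) had 901.7, 816.2, 941.2 and 919.8 counts in young and 271.1, 359.9, 293.1, 261.2 and 254.6 in old libraries, a log2 fold change of -1.64 (SE 0.11, adjusted p = 4.9e-10 in limma). Psmb5 (beta 5, the chymotrypsin-like site and target of bortezomib) had 983.6, 928.9, 1056.9 and 1114.4 in young and 879.3, 895.9, 795.1, 782.6 and 775.5 in old libraries. The gap between the lowest young and the highest old library was small, and the log2 fold change was -0.31 (SE 0.09, adjusted p = 0.0079 in limma). It was not called with the length trend removed (0.12) or with mitochondrial genes left out (-0.16). Psmb6 (beta 1, the caspase-like site) was the only core gene of the 17 called higher. With a trend with transcript length removed, Psma6 and Psmb3 were called higher as well. Psmb6 had 525.0, 473.2, 572.6 and 478.9 counts in young and 614.1, 501.0, 624.7, 736.0 and 735.2 in old libraries, so that old library 2 lay within the young range. Its log2 fold change was 0.32 (SE 0.12, adjusted p = 0.0247 in limma). The call was lost when libraries were scaled to equal table totals (adjusted p = 0.0514) and when any of young 2, young 4, old 4 or old 5 was left out, with adjusted p of 0.0595 to 0.0780. It was kept, with a larger log2 fold change, with the length trend removed (0.74) and with mitochondrial genes left out (0.46).

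All 3 immunoproteasome genes fell. Psmb8 (beta 5i) had 101.6, 86.5, 118.6 and 81.5 counts in young and 29.5, 25.2, 39.6, 27.1 and 21.2 in old libraries, a log2 fold change of -1.75 (SE 0.20, adjusted p = 6.0e-07 in limma). Psmb9 (beta 1i) had 62.2, 48.6, 52.0 and 48.9 in young and 15.3, 12.0, 14.2, 8.40 and 8.49 in old libraries, with a log2 fold change of -2.12 (SE 0.25, adjusted p = 9.7e-07). Psmb10 (beta 2i) had 82.7, 80.6, 83.3 and 93.2 in young and 31.8, 41.6, 47.7, 42.9 and 40.3 in old libraries, with a log2 fold change of -1.05 (SE 0.17, adjusted p = 3.0e-05). No old library reached the young range for any of the 3. Old libraries 4 and 5 were lowest for Psmb9, at 9 and 8 reads.

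**Figure D3:**
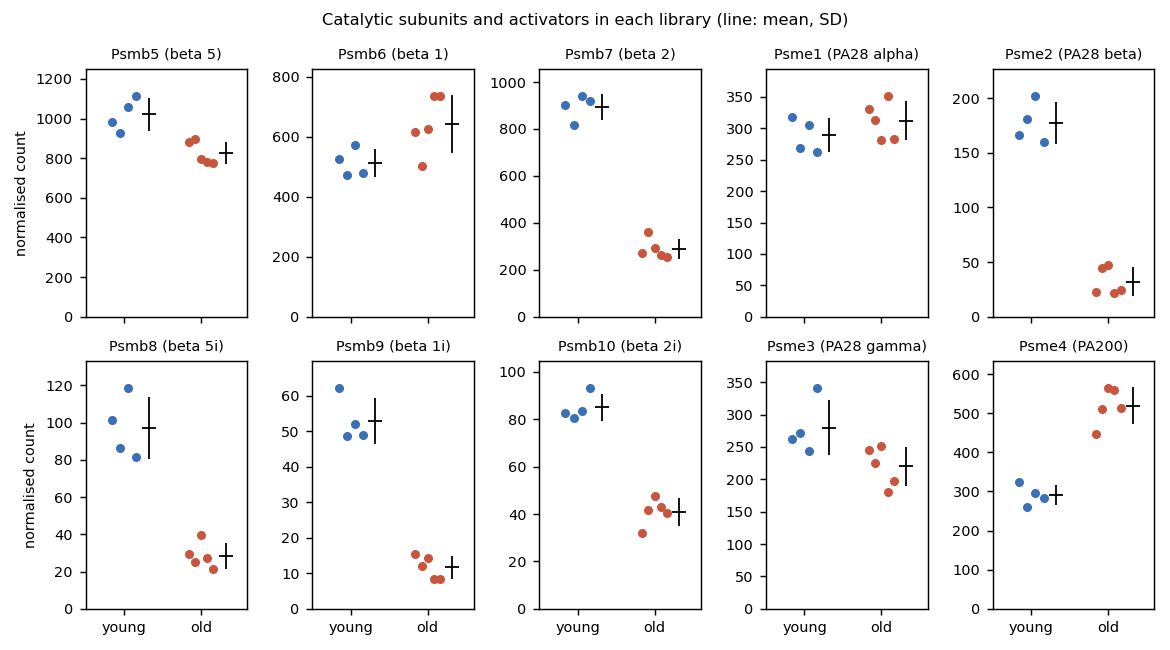
Normalised counts of the 6 catalytic subunits and the 4 activators in each library, young in blue and old in red, on axes that start at 0, with a black line for the mean and SD. The immunoproteasome genes, Psmb7 and Psme2 separate by age with no overlap, Psmb6 and Psme3 overlap, and Psme4 is higher in every old library.

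The immunoproteasome genes were also set against the constitutive subunit each replaces, as a ratio of reads within a library, which does not depend on the size factor. Reads of Psmb8 per 100 reads of Psmb5 were 10.3, 9.31, 11.2 and 7.31 in young and 3.35, 2.81, 4.97, 3.46 and 2.74 in old libraries. Reads of Psmb9 per 100 reads of Psmb6 were 11.9, 10.3, 9.08 and 10.2 in young and 2.50, 2.40, 2.27, 1.14 and 1.15 in old libraries. Both ratios were lower in 5 of 5 old libraries than in any young one. Reads of Psmb10 per 100 reads of Psmb7 went the other way, at 9.17, 9.88, 8.85 and 10.1 in young and 11.7, 11.6, 16.3, 16.4 and 15.8 in old libraries, since Psmb7 fell by more than Psmb10. For the test, 1 normalised count was added to each gene before the log2 ratio, which thus depends on the size factor through this addition. The log2 ratio changed by -1.44 for Psmb8 to Psmb5, by -2.43 for Psmb9 to Psmb6 and by 0.59 for Psmb10 to Psmb7. Each gave p = 0.0159 in an exact two-sided permutation test over all splits into 4 and 5 libraries (adjusted over the 3 pairs, 0.0159), which is the smallest p that the design allows. These ratios compare reads of transcripts of different length and are read only for their change with age.

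**Figure D4:**
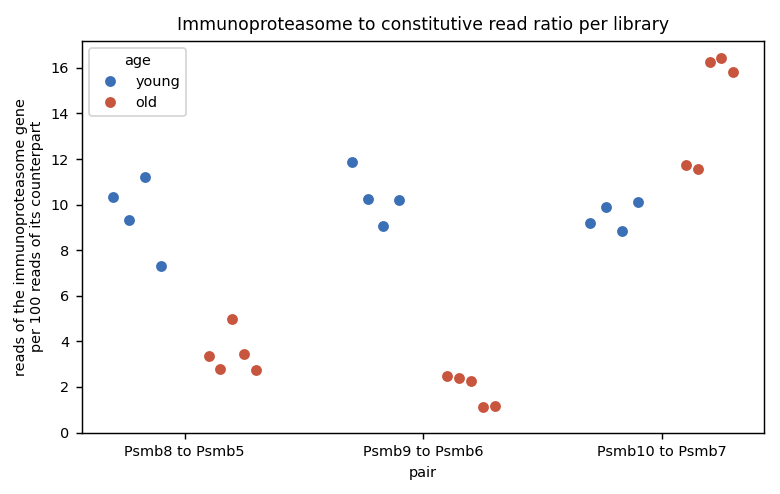
Reads of each immunoproteasome gene per 100 reads of the constitutive subunit it replaces, 1 point per library, young in blue and old in red. The first 2 pairs are lower in all 5 old libraries, and the third is higher.

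The promoters of the catalytic genes with a window are shown because the pairs are known to differ in their transcriptional control, interferon-responsive for the immunoproteasome genes and driven by NFE2L1 through an antioxidant response element for the constitutive ones. The sequence is the 250 bases before the RefSeq start on GRCm38.p6, read 5′ to 3′ along the gene, and those of Psma5 and Psmd4, the members with the largest fall and the largest rise, follow. Capitals mark a match to any of 4 motifs searched on both strands: the antioxidant response element core TGACNNNGC, the CCAAT box CCAAT, the STAT site TTCNNNGAA and the interferon element core GAAANNGAA.
Psmb5, chr14:54617996-54618245, strand -: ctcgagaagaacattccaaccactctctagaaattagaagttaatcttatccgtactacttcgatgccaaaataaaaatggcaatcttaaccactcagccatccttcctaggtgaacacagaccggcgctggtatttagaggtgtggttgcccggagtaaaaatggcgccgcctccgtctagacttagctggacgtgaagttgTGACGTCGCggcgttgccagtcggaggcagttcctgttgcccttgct
Psmb8, chr17:34197945-34198194, strand +: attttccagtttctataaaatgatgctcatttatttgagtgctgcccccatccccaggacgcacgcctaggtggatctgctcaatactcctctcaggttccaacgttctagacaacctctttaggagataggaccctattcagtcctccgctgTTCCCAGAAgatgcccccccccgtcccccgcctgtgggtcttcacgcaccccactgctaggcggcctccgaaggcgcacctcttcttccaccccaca
Psmb6, chr11:70525107-70525356, strand +: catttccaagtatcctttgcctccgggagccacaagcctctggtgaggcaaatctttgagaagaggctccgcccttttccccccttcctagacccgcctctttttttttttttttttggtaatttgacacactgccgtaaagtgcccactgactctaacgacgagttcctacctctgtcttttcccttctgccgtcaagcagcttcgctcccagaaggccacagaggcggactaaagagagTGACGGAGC
Psmb9, chr17:34187331-34187580, strand -: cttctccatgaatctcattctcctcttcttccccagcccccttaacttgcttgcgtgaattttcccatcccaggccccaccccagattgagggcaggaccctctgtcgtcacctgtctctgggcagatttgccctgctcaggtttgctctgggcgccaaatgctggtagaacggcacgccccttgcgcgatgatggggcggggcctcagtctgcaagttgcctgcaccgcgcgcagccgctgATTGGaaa
Psmb10, chr8:105938393-105938642, strand -: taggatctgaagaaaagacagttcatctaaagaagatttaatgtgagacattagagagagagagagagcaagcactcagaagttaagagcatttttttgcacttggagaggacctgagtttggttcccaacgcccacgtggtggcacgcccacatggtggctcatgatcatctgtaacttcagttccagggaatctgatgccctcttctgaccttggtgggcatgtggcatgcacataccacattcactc
Psma5, chr3:108256676-108256925, strand +: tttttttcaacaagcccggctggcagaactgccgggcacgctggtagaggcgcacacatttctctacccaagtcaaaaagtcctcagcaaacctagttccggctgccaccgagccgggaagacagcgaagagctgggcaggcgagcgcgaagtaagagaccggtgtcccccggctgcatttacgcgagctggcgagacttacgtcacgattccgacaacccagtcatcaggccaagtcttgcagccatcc
Psmd4, chr3:95042615-95042864, strand -: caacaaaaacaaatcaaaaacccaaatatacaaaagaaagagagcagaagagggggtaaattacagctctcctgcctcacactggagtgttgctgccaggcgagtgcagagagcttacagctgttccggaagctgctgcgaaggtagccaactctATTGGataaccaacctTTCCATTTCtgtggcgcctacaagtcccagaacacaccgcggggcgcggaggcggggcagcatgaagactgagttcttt
Psmb5 and Psmb6, which went in opposite directions, each held 1 match to the antioxidant response element core and none of the other motifs. Psmb8 held a STAT site, a palindrome that matched on both strands, Psmb9 a CCAAT box on the opposite strand, Psmd4 a CCAAT box and an interferon element core, and neither Psmb10 nor Psma5 any of the 4. Windows were held for 39 of the 46 genes (not for Psmb1, Psmb2, Psmb7, Psmc3, Psmd3, Psmd7 and Psmg2). The antioxidant response element core was in 5 of the 39 (12.8%) against 13.9% of 9620 tested genes with a window, and the CCAAT box in 33.3% against 39.9%. The STAT site was in 5.13% against 6.87%, and the interferon element core in 7.69% against 7.33%. Of the members called lower, 2 of 23 held the antioxidant response element core, and of those called higher, 1 of 7. These are matches of letters in a short window and not binding sites.

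The 6 ATPases form the ring of the base that unfolds the substrate. Of these 2 rose, 1 fell and 3 were not called, with a median of 0.10. Psmc3 (Rpt5) had 483.2, 474.2, 472.6 and 435.4 counts in young and 775.6, 823.7, 928.9, 1097.9 and 1333.5 in old libraries, a log2 fold change of 1.06 (SE 0.13, adjusted p = 1.3e-06 in limma). Psmc1 (Rpt2) had 711.7, 586.9, 637.3 and 643.7 in young and 1149.2, 928.7, 1176.4, 1592.3 and 1684.6 in old libraries, with a log2 fold change of 0.99 (SE 0.14, adjusted p = 7.5e-06). For both genes old libraries 4 and 5 were the highest and no old library overlapped the young. Psmc4 (Rpt3) went the other way, with 506.1, 472.2, 475.5 and 497.9 in young and 383.1, 387.2, 340.8, 380.6 and 395.7 in old libraries. Its log2 fold change was -0.37 (SE 0.09, adjusted p = 0.0020 in limma), a call that was lost with the length trend removed (-0.051). Psmc2 (0.12), Psmc5 (0.09) and Psmc6 (-0.09) were not called, with 95% intervals from -0.33 to 0.36 between them. With the length trend removed Psmc2 (0.36) and Psmc5 (0.44) were called higher and the median of the ATPases was 0.40, and Psmc2 was also called higher with mitochondrial genes left out (0.26).

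The 14 non-ATPase genes had 5 rises and 6 falls. Of the 3 scaffold and receptor subunits of the base, Psmd4 (Rpn10, a ubiquitin receptor) rose more than any other proteasome gene. It had 521.7, 482.9, 520.6 and 548.6 counts in young and 1278.9, 1056.7, 1267.7, 1529.8 and 1721.7 in old libraries, a log2 fold change of 1.38 (SE 0.12, adjusted p = 1.4e-08 in limma) or 2.61-fold. Psmd2 (Rpn1, the scaffold that binds shuttle proteins) had 289.9, 347.9, 295.1 and 303.3 in young and 440.8, 456.1, 542.6, 450.5 and 406.3 in old libraries, with a log2 fold change of 0.57. The groups did not overlap for either gene. Psmd1 (Rpn2, the other scaffold) was not called, at -0.22 on the log2 scale and an adjusted p of 0.0580 in limma, although its highest old library (368.1) was below its lowest young one (378.4). It was called lower with equal table totals (-0.27), with the filter on a mean of 100 and without old 5.

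The lid was split, with 5 of its 8 genes lower and 3 higher. Psmd14 (Rpn11, the deubiquitinase that cuts ubiquitin from the substrate) had 228.5, 227.4, 195.1 and 162.0 counts in young and 60.1, 106.1, 94.3, 77.4 and 94.4 in old libraries. Its log2 fold change was -1.24 (SE 0.16, adjusted p = 3.4e-06 in limma). Psmd11 (Rpn6, a lid scaffold that clamps the lid to the core) had 497.1, 545.1, 584.4 and 447.2 in young and 194.5, 263.6, 235.3, 210.8 and 221.7 in old libraries, with a log2 fold change of -1.20 (SE 0.11, adjusted p = 5.6e-08). Psmd8 (Rpn12, -0.88), Psmd3 (Rpn3, -0.62) and Psmd12 (Rpn5, -0.57) also fell. Psmd7 (Rpn8), which pairs with Psmd14 in the active deubiquitinase, had 410.3, 456.7, 411.8 and 423.7 in young and 526.9, 569.9, 533.4, 493.5 and 542.1 in old libraries and a log2 fold change of 0.32 (SE 0.09, adjusted p = 0.0050 in limma). These partners thus moved apart. Psmd13 (Rpn9) had 375.9, 346.9, 367.7 and 425.5 in young and 595.2, 474.7, 518.2, 625.9 and 632.3 in old libraries, with a log2 fold change of 0.58. Psmd6 (Rpn7) had 292.4, 316.8, 287.3 and 239.0 in young and 506.8, 423.3, 406.7, 375.0 and 369.2 in old libraries, with a log2 fold change of 0.55. All 8 lid genes had groups that did not overlap. The 3 Psmd genes that encode chaperones of base assembly gave 1 fall (Psmd5, -0.72) and no rise, with Psmd9 at 0.26 and Psmd10 (gankyrin) at 0.14 not called. Both were called higher with the length trend removed (0.37 and 0.46), and Psmd9 with mitochondrial genes left out (0.40).

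The 4 activators diverged. Psme1 (chr14:55578123-55581529 on GRCm38) and Psme2 (chr14:55587441-55591113) are close neighbours on opposite strands and encode the alpha and beta subunits of the same ring-shaped PA28 complex. Psme1 had 318.6, 269.1, 305.9 and 262.5 counts in young and 331.2, 313.9, 280.9, 351.7 and 283.2 in old libraries, overlapping ranges with a log2 fold change of 0.11 (95% interval -0.12 to 0.34). It was called higher with the length trend removed (0.51) and with mitochondrial genes left out (0.25). Psme2 had 166.2, 180.7, 202.0 and 159.3 in young and 22.4, 44.8, 47.7, 21.5 and 24.4 in old libraries, a log2 fold change of -2.50 (SE 0.23, adjusted p = 2.8e-08 in limma). Reads of Psme2 per 100 reads of Psme1, a ratio chosen after the values were seen, were 52.2, 67.1, 66.0 and 60.7 in young and 6.76, 14.3, 17.0, 6.10 and 8.61 in old libraries. Psme4 (PA200, an activator without ATPase activity found in the nucleus) had 323.5, 260.4, 296.1 and 283.4 in young and 446.7, 511.9, 564.9, 559.7 and 512.4 in old libraries. It rose by 0.83 on the log2 scale (SE 0.10, adjusted p = 1.6e-06 in limma) with no overlap. The rise ranged from 0.48 to 0.97 over the main test and its alternatives. Psme3 (PA28 gamma, the nuclear form) had 262.9, 271.1, 243.2 and 341.3 in young and 245.2, 225.3, 251.5, 181.0 and 197.3 in old libraries. The groups overlapped, and its log2 fold change was -0.34 (adjusted p = 0.0279 in limma). The call was lost with the length trend removed, with mitochondrial genes left out and without young 4, old 4 or old 5 (-0.31 to -0.24). Psme3ip1 had a log2 fold change of -0.44 (adjusted p = 0.0083 in limma). Psmf1 (PI31, an inhibitor in vitro) had 145.8, 153.5, 192.2 and 153.0 in young and 107.3, 101.7, 85.2, 155.8 and 92.3 in old libraries, where old library 4 alone lay in the young range, and its log2 fold change was -0.59 (SE 0.16, adjusted p = 0.0041).

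All 4 core-assembly chaperones fell, with a median of -1.09. Psmg1 and Psmg2 (PAC1 and PAC2) act as a pair that starts the alpha ring. Psmg1 had 137.6, 108.8, 144.1 and 126.7 counts in young and 28.3, 56.9, 40.6, 41.0 and 65.8 in old libraries, a log2 fold change of -1.51 (SE 0.21, adjusted p = 4.8e-06 in limma). Psmg2 had 163.0, 142.8, 135.3 and 134.0 in young and 55.4, 38.3, 45.6, 29.8 and 55.2 in old libraries, with a log2 fold change of -1.69 (SE 0.18, adjusted p = 2.8e-07). Neither pair member overlapped between ages. Psmg3 (-0.68) and Psmg4 (-0.47), the partners of the second chaperone pair, fell by less, their groups overlapped, and both calls were lost with the length trend removed (-0.25 and -0.098), that of Psmg4 also with mitochondrial genes left out (-0.33, adjusted p = 0.0507 in limma).

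Of 14 tested proteins that associate with the proteasome, assemble it or regulate its transcription, 6 rose and 4 fell, against 29.2% and 30.5% of all genes. Pomp, the chaperone that matures the beta rings, had 1126.2 to 1275.6 normalised counts in young and 232.3 to 373.0 in old libraries, a log2 fold change of -2.03 (SE 0.12, adjusted p = 1.7e-10 in limma). Sem1, the small lid subunit whose symbol lies outside the family, fell by 2.08 on the log2 scale (552.2 to 665.0 in young, 119.7 to 190.3 in old). Adrm1 (Rpn13, a ubiquitin receptor) fell by 0.47, whereas its partner deubiquitinase Uchl5 rose by 0.88. Usp14, the other deubiquitinase that docks on the base, rose by 0.36. Nfe2l1, the transcription factor that induces proteasome genes, was not called at -0.17, and among the genes that process it Ddi2 rose by 0.85 and Ngly1 by 0.50. Of 11 shuttle and unfoldase genes, 2 rose and 3 fell, where 59.7% of all genes were called, with Vcp at 0.36, Ufd1 at 0.37 and the Vcp cofactor Nsfl1c at -1.11.

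Of the genes of ubiquitin and its activating enzymes, Uba1, the main activating enzyme, rose by 0.65 on the log2 scale (762.7 to 927.9 normalised counts in young, 1174.4 to 1452.4 in old). Rps27a, which encodes ubiquitin fused to a ribosomal protein, fell by 1.93 (2051 to 2166 in young, 499.7 to 629.0 in old). Neither overlapped between ages. Ubb, a polyubiquitin gene, was not called at -0.16, nor was Uba6, the second activating enzyme, at 0.06.

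The genes that accompany the immunoproteasome in antigen presentation gave 2 of 8 tested higher and 1 lower, against 29.2% higher and 30.5% lower over all genes. Tap2, a subunit of the peptide transporter and a neighbour of Psmb9 (chr17:34181987-34187764 on GRCm38) and Psmb8 (chr17:34197721-34201454) in the MHC region, fell by 2.73 on the log2 scale (59.3 to 100.5 normalised counts in young, 6.08 to 22.4 in old). Its partner Tap1 was not called at -0.30, nor were B2m (-0.02) and Irf1 (0.10). Tapbp rose by 0.43 and Irf8 by 0.46. Of 15 leukocyte markers tested, 6 were called higher and 3 lower, and 6 of the 22 listed had no row in the table. The sum of the leukocyte markers was 3350 to 3657 normalised counts in young and 3423 to 3887 in old libraries, overlapping ranges, most of it from 4 MHC class II pathway genes. Ptprc, the pan-leukocyte marker, rose by 1.37 on the log2 scale (25.5 to 43.4 in young, 69.0 to 97.8 in old) and Jchain, a plasma cell gene, by 1.80, as did Adgre1 (0.95) and C1qa (0.56), while Coro1a fell (-0.68). The class II pathway genes were split, with Cd74 (0.58) and H2-Eb1 (0.46) higher and H2-Aa (-1.21) and H2-Ab1 (-0.30) lower. The part of these markers in the fall of the immunoproteasome genes was not tested.

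The proteasome genes share some features beyond their symbols. Their longest protein-coding transcripts in GENCODE vM21 had a median of 1491 bases against 3075 for all genes, with medians of 50.4% and 49.8% GC. Across 12598 genes, which are not independent replicates, Spearman's rho between transcript length and log2 fold change was 0.284, shorter transcripts being lower in old libraries, and across the 46 members it was 0.201. When the length trend was removed from each library, 16 members were called higher and 21 lower with a median of -0.21, against 9 and 28 in the main test. The alpha subunits then had 4 falls and 1 rise, the ATPases 0 falls and 4 rises, the immunoproteasome genes 3 falls and the chaperones 2. When mitochondrial genes were left out and libraries scaled to equal totals, which moved the median of all genes to 0.13, 12 were higher and 24 lower with a median of -0.32. Called in the same direction throughout were 29 members. Psma2, Psma3, Psma4, Psma5, Psmb1, Psmb2, Psmb4, Psmb7, the 3 immunoproteasome genes, Psmd3, Psmd5, Psmd8, Psmd11, Psmd12, Psmd14, Psme2, Psmf1, Psmg1 and Psmg2 were lower, and Psmc1, Psmc3, Psmd2, Psmd4, Psmd6, Psmd7, Psmd13 and Psme4 higher, in the main test and in every alternative that tested them, a filter on a mean of 100 having left out the immunoproteasome genes, Psme2, Psmg1 and Psmg2.

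**Figure D5:**
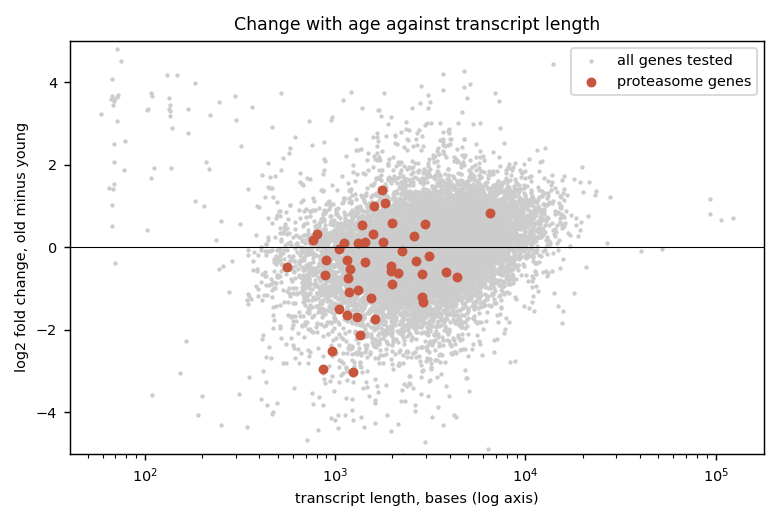
Log2 fold change, old minus young, against transcript length on a log axis for all tested genes in grey and the 46 proteasome genes in red; 19 genes beyond 5 log2 units are outside the plot. Proteasome genes lie toward the short end of the range, and members of similar length differ by over 3 log2 units.

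Several members have near-identical copies elsewhere in the genome, which could draw or drop reads. In the last 500 bases of the transcript, the share of 50-base words also found in transcripts of another gene was 66.8% for Psme2 (Gm7928 and Psme2b), 63.2% for Psmb3, 62.5% for Psma5 (Gm12989 and Gm8394), 56.8% for Psmd1 and 54.5% for Psmb5, and their values are uncertain to that extent. In that annotation 3 members overlapped an exon of another gene on the same strand (Psmb5, Psmd1 and Psmg3). For Psmd1 that gene was Gm21972, the only other gene that shared its words. The share of Psmd1 is thus that of an overlapping gene and not of a copy elsewhere. Of the copies of members sharing over 5%, only Gm6542, a copy of Psma4, had a row in the table. The 30 members with no shared word had 20 falls, 5 rises and a median of -0.55, and the 16 with any shared word 8 falls, 4 rises and a median of -0.26. Psmb2, Psmb7, the immunoproteasome genes, Psmd4, Psme4, Psmg1 and Psmg2 were among those with none.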

How the data were processed

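Kidney RNA of wild-type mice was sequenced from 4 young and 5 old libraries (500 ng total RNA, a stated mean integrity number of 7.5, range 7.4 to 7.6, for all libraries). The authors aligned reads to GRCm39 with TopHat2 2.0.10, Bowtie 1.0.0 and SAMtools 0.1.19 and HTSeq 0.6.1 gave strand-specific counts over GENCODE vM26 genes. The deposited values are a signal per gene, read counts divided by a size factor per library, from DESeq per the methods and DESeq2 per the submitters' processing notes. The deposited table leaves out genes of low mean, the lowest mean being 4.49. The kit version differs between labels and methods.

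Whole reads were recovered in all 9 libraries (100% of values within 0.01 of a whole number). A count of 3 reads was 4.72e-05 to 6.69e-05% of a library, a floor that covers counting error only, since no molecular identifiers were used. The 95% intervals are from limma and cover the spread between libraries. Genes that reached 10 normalised counts in 4 or more libraries entered the test, limma 3.58.1 (R 4.3.3, trended eBayes), on log2(normalised count + 1), a scale that understates changes of low genes. No replicate pairing existed. Ratios of pairs were tested with scipy 1.17.1. limma, edgeR 4.0.16 and DESeq2 1.42.0 were tested on simulated data. Few genes changed there, equally up and down, with the same spread for all genes. That setting differs from these data, so it does not show how the tools perform here. Alternatives were pseudocounts of 0.1 and 5, no filter, a mean of at least 100, TMM factors, equal table totals, mitochondrial genes left out, edgeR, DESeq2, robust eBayes, removal of the length trend and leaving out each library.

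Transcript lengths, shared 50-base words and overlaps came from GENCODE vM21 on GRCm38 and promoters from RefSeq on GRCm38.p6, not the authors' build, matched by symbol. The labels give group sizes as mice. Library values were given for the 6 catalytic genes, the activators and, per other group, the 2 largest called rises and falls with a mean of at least 50, plus called members against their group's direction. The members, lists and rules were chosen with earlier results of these data known. Some listed genes are not reported here.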

Additional observations from a re-analysis of the deposited data

Results flagged for a closer look

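One value stood apart from its group among the 58 groups of library values examined (26 genes and 3 read ratios, each at both ages), where chance alone gives about 1 in 20, or 2.9. It was Psmc4 in old library 3, at 8.42 on the log2 scale (340.8 normalised counts), while the other old libraries lay between 8.58 and 8.63, a gap of 0.74 of the group's range by Dixon's test. The library lay on the side of the fall of Psmc4, and the other 4 old libraries were also below every young one.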

How the results depend on the processing

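No paired analysis was made, since the labels pair no young library with an old one. Of 46 members, 29 kept their direction and their side of the threshold in every one of the 20 alternatives that tested them, and 17 changed in some way. The number called was 31 (mean of at least 100) to 37, and 35 to 37, with 8 to 9 higher and 27 to 28 lower, when each library was left out. With the length trend removed, 16 members were called higher against 9; the cause was not tested. The log2 fold change then turned positive for Psma6 (0.38), Psma7 (0.087), Psmb5 (0.12) and Psmc6 (0.069), and with mitochondrial genes left out it was 0.10 for Psma6 and 0.056 for Psmc6. Psma6 ranged from -0.086 to 0.0054 when each library was left out, the highest without young library 1. edgeR and DESeq2 on the recovered reads each called 37 members, 9 higher and 28 lower. The ratios of Psmb8 to Psmb5 (-1.58 to -1.36), Psmb9 to Psmb6 (-2.55 to -2.28) and Psmb10 to Psmb7 (0.54 to 0.67) kept their direction without each library; the exact permutation p was then the smallest that the remaining libraries allow, at most 0.0357, and says nothing of stability. Reads under about 10 per library limit Psmb9 in old libraries 4 and 5. A member not called may still differ within its interval.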
